A study of Homo sapiens with 36 samples.

Results

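The genes described here are 47 interferon-stimulated genes, taken from a list drawn up by gene name and found in the deposited count table by symbol, out of 28516 genes in all. Expression was measured by poly(A) RNA-seq in human neural stem cells (hNSC), a commercially supplied culture of neural progenitors, 48 h after lentiviral transduction. MEIS1 and MEIS2, a pair of related homeodomain transcription factors, were either overexpressed through CRISPR-activation (MEIS1-OE and MEIS2-OE) or knocked out with CRISPR/Cas9 (MEIS1-KO and MEIS2-KO), and each system had its own control with a non-targeting guide (ctrl-OE and ctrl-KO), which gave 6 groups of 6 libraries. All groups, controls included, were transduced. The OE groups carried the guide with a catalytically dead Cas9 fused to an activator and a helper activator complex. The KO groups carried active Cas9, with a mixture of a pair of guides for the targeted gene in MEIS1-KO and MEIS2-KO. Whole transduced cultures were harvested with no cloning step described, and nothing in the labels says whether the 6 libraries of a group came from separate cultures, so the p-values measure the spread between these libraries, which may be technical.

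Type I interferons are secreted proteins that bind the receptor chains IFNAR1 and IFNAR2 and, through the kinases JAK1 and TYK2, activate a complex with STAT2 and IRF9 that binds interferon-stimulated response elements in promoters. The genes switched on in this way encode sensors of foreign RNA and DNA, enzymes that degrade, edit or modify RNA, proteins that block viral entry or release, the ubiquitin-like modifier ISG15 with its conjugation machinery, and transcription factors that feed back on the pathway. Many of them are also transcribed at a low level without interferon, and neural stem cells are known for a high basal level of some members, among them the IFITM genes.

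Many promoters of these genes held a motif that the choice of the genes did not use. The letters GAAA, any 2 bases and GAAA again, the core of the response element, were searched on both strands of RefSeq promoter windows (GRCh38.p14, 250 bases before to 50 after each start), and 39 of the 47 genes had a window. The motif occurred in 25 of these 39 genes (64.1%), against 1195 of all 27305 genes with a promoter window (4.38%). For the motifs, all genes means these 27305, whether or not they are in the count table. The longer form that ends in GAAACT, each match of which is also a match of the shorter form, occurred in 16 of 39 genes (41.0%) and in 0.322% of all genes. TTCNNNGAA, the site of STAT dimers, occurred in 10 of 39 genes (25.6%) against 9.38% of all genes, and TGACAG, the consensus of MEIS proteins, in 6 of 39 genes (15.4%) against 18.6%. A match is a description of the letters and not evidence that a factor binds. The 6 windows printed next belong to genes with the values described later on: SAMD9 and IFIT3 were higher and IFITM1, IFITM3 and DDX60 lower in ctrl-OE than in ctrl-KO, and BST2 differed in several comparisons. Each is written 5′ to 3′ on the strand of the gene, in lower case with the matches in capitals, from 60 bases before the first match to 60 bases after the last, or to the start site where that comes first. The second match of IFITM1 began 6 bases before its start and ran past it, so that sequence ends with the match.
SAMD9, chr7:93118046-93118175, minus strand: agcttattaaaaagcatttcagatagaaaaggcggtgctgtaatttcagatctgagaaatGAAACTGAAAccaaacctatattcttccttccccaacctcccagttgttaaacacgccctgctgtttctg
IFIT3, chr10:89327781-89327944, plus strand: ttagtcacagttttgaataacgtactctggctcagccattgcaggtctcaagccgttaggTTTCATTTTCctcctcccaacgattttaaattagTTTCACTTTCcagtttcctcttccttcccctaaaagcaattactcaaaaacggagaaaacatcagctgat
BST2, chr19:17405685-17405820, minus strand: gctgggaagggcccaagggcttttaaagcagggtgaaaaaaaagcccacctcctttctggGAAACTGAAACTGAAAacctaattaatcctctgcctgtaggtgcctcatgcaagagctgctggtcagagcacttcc
DDX60, chr4:168318753-168318900, minus strand: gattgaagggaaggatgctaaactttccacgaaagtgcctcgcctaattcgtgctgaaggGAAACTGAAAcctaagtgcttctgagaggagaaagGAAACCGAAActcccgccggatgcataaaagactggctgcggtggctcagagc
IFITM1, chr11:313940-314043, plus strand: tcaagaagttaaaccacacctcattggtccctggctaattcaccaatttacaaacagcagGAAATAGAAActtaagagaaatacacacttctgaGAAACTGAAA
IFITM3, chr11:320861-320972, minus strand: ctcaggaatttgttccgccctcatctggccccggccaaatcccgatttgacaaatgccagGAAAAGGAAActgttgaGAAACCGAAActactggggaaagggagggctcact
SAMD9 held 1 match, which began 136 bases before its start. IFIT3, DDX60, IFITM1, IFITM3 and BST2 held 2 matches each, and those of BST2 overlapped. IFIT3 carried its matches on the opposite strand, so that they read TTTC, 2 bases and TTTC here.

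Total counts ranged from 15429985 to 22940493 per library, with a median of 20324720. MEIS1 stood at 287 to 323 CPM (counts per 1000000, scaled by edgeR's TMM factors) in MEIS1-OE against 15.7 to 18.8 in ctrl-OE, and at 6.43 to 11.2 CPM in MEIS1-KO against 23.7 to 28.0 in ctrl-KO. MEIS2 stood at 793 to 852 CPM in MEIS2-OE against 20.5 to 24.1 in ctrl-OE, and at 10.5 to 13.4 CPM in MEIS2-KO against 23.5 to 27.4 in ctrl-KO. The targeted genes therefore followed the labels in every library. The 8 markers of neural stem cells (among them NES, SOX2 and VIM) summed to 2947 to 6090 CPM per library and none was absent. Of 7 leukocyte markers 4 never exceeded 10 counts, and the 7 summed to 3.04 to 14.99 CPM. Other lists were detected too, with sums of 128 to 323 CPM for 5 neuronal, 91.0 to 228 for 4 endothelial and 269 to 958 for 5 mesenchymal markers. In 4 libraries the genes of high GC content deviated from the genes of low GC content by more than 0.5 on the log2 scale relative to their own group. These were MEIS1-OE replicate 3 (-0.84), ctrl-KO replicate 2 (-0.57), ctrl-OE replicate 6 (0.64) and MEIS1-KO replicate 6 (0.89). Some of the results that rest on these libraries, but not all, are also given without them.

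Of the 47 genes, 42 reached 10 counts summed over the 36 libraries and entered the test, which was fitted over 19689 genes. On average over all libraries, 18 genes lay above 10 CPM, 12 between 1 and 10 CPM, and 17 under 1 CPM. Several classical genes of the acute interferon response had hardly any counts. MX2, a GTPase that blocks nuclear entry of viral genomes, had 1 count in all libraries together. OAS2 and OAS1, synthetases of the 2-5A messenger that activates RNase L, had 4 and 8 counts, and the GTPase GBP1 had 9. MX1, a related antiviral GTPase, reached at most 11 counts in a library and lay at 0.134 to 0.374 CPM (median 0.211) in ctrl-OE and 0.193 to 0.480 CPM (median 0.249) in ctrl-KO. IRF9, the DNA-binding part of the STAT complex, had 0 counts in every library, and a total of 3 counts over all libraries would correspond to 0.00413 CPM. In the GENCODE v44lift37 annotation (GRCh37) IRF9 lies at chr14:24630443-24637252 and overlaps a read-through gene on the same strand. How the deposited counts treated reads shared by the pair was not tested, so its 0 is not read as an absence from the cells.

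At the other end, ADAR, the editing enzyme that converts adenosine to inosine in double-stranded RNA, drew the most reads of the 47 genes, with 478 to 523 CPM (median 502) in ctrl-OE and 444 to 493 CPM (median 468) in ctrl-KO. IFITM3 and IFITM2, membrane proteins that block fusion of viral envelopes, came next by reads. Compared per length of the canonical transcript, IFITM3 came first (376 CPM per kb on average over all libraries), followed by IFITM2 (117), IFITM1 (97.0), ADAR (81.2) and UBE2L6 (75.6). These levels per length are given as an order only, since near-identical IFITM sequences and an overlapping gene model at IFITM1 and IFITM2 make their split uncertain. The summed level of all members was 1289 to 1392 CPM in ctrl-OE, 1658 to 1766 CPM in MEIS1-OE and 1292 to 1331 CPM in MEIS2-OE. In the KO system it was 1435 to 1490 CPM in ctrl-KO, 1432 to 1614 CPM in MEIS1-KO and 1449 to 1536 CPM in MEIS2-KO. The MEIS1-OE libraries were all above those of every other group, and ADAR alone made up 784 to 878 CPM (median 807) of their sum.

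**Figure D1:**
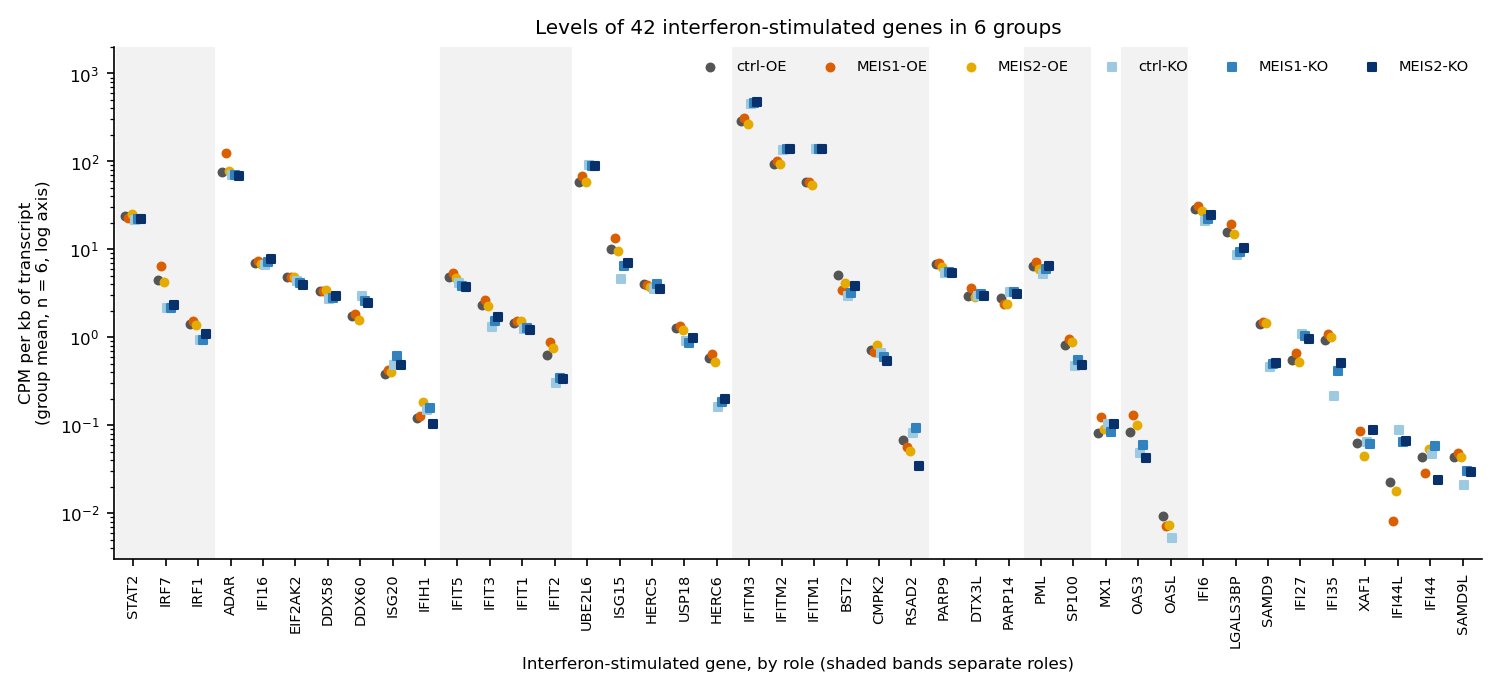
Mean level of the 42 tested genes in each of the 6 groups, as CPM per kb of canonical transcript on a log axis, with 6 libraries per mean. Genes are ordered by role, circles are OE groups and squares KO groups, and a group mean of 0 (OASL in both knockouts) is not drawn. The IFITM genes, ADAR and UBE2L6 lie at the top, and the OE and KO groups separate at SAMD9, HERC6, IFI35 and IFITM1.

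The interferon-stimulated genes differed most often between the control groups of the 2 systems. Of 42 genes, 30 passed the test in ctrl-OE against ctrl-KO (edgeR quasi-likelihood, adjusted p under 0.05), 22 higher and 8 lower in ctrl-OE. These controls differed at 51.4% of all genes tested, 27.5% higher and 23.9% lower. With an absolute log2 fold change above 0.58 required as well, 18 genes remained, 12 higher and 6 lower, against 22.1% of all genes (13% higher and 9.15% lower). The median log2 fold change was 0.19 over the 42 genes and 0.0486 over all genes. The fold requirement aside, 23 of the 30 calls held under every alternative, while those of ADAR, EIF2AK2, HERC5, IFIT1, PARP14, PML and SAMD9L were lost under at least 1. Without the 4 libraries that stand apart by GC content 30 genes passed as well against 52% of all genes, 29 of them the same, with PML lost and STAT2 gained. The controls differ in vectors, Cas9 form and the viruses applied at once, so these cannot be told apart, and in bulk libraries fewer cells with a transcript cannot be told apart from less RNA per cell. The summed level of 7 leukocyte markers also differed, at 8.05 to 11.7 CPM in ctrl-OE and 3.04 to 3.41 CPM in ctrl-KO. CD68, a lysosomal protein, averaged 7.71 and 1.79 CPM of it, while PTPRC, which marks leukocytes at large, averaged 0.0144 and 0.0541 CPM. Of the 7 leukocyte markers 3 passed the test, all higher in ctrl-OE, and PTPRC was not among them. The 8 neural stem cell markers summed to 2996 to 3876 CPM in ctrl-OE and 4457 to 4958 CPM in ctrl-KO, and 5 mesenchymal markers to 269 to 433 CPM and 597 to 776 CPM. The sums of 4 endothelial markers (91.0 to 119 CPM and 147 to 160.1 CPM) and 5 markers of the oligodendrocyte lineage (27.3 to 29.6 CPM and 31.8 to 37.97 CPM) were likewise apart between the controls. Their part in the result was not tested.

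Among the transcription factors, IRF7, the master regulator of interferon production, lay at 5.86 to 13.5 CPM (median 8.02) in ctrl-OE and 2.95 to 6.02 CPM (median 3.90) in ctrl-KO. Nearly all ctrl-OE libraries, 5 of 6, were above every ctrl-KO library, and the log2 fold change was 1.08 ± 0.23 (SE), adjusted p = 1.21e-04. IRF1, an activator that acts early in the response, lay at 4.16 to 5.69 CPM (median 5.19) and 2.83 to 3.65 CPM (median 3.57), with a log2 fold change of 0.59 ± 0.10 (SE), adjusted p = 9.31e-06. STAT2, a subunit of the STAT complex, lay at 85.7 to 115 CPM (median 106) in ctrl-OE and 87.3 to 107 CPM (median 92.9) in ctrl-KO. Its groups overlapped, and the 95% confidence interval of the log2 fold change was 0.01 to 0.28 (adjusted p = 0.0726 by edgeR), while without the 4 libraries the log2 fold change was 0.24 (adjusted p = 0.00130).

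All 4 IFIT genes, whose products bind RNA with foreign 5′ ends and block its translation, were higher in ctrl-OE. IFIT3 lay at 5.28 to 5.98 CPM (median 5.45) in ctrl-OE and 2.46 to 3.54 CPM (median 3.14) in ctrl-KO, and IFIT2 at 1.70 to 2.48 CPM (median 2.12) and 0.720 to 1.80 CPM (median 0.798). For IFIT3 the groups were apart, while for IFIT2 1 ctrl-OE library fell within the ctrl-KO range. Their log2 fold changes were 0.84 ± 0.11 and 1.05 ± 0.18 (SE), with adjusted p = 2.90e-08 and 4.08e-06 by edgeR. IFIT1 lay at 5.46 to 7.76 CPM (median 5.996) in ctrl-OE and 4.40 to 6.42 CPM (median 5.01) in ctrl-KO, and IFIT5 at 18.5 to 20.8 CPM (median 19.4) and 15.03 to 19.6 CPM (median 16.7). Both overlapped between the groups and differed less, with log2 fold changes of 0.23 and 0.21.

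The ISG15 system attaches the small modifier ISG15 to other proteins, and its 5 members all passed the test, in different directions. HERC6, the ligase that attaches ISG15 in mice, lay at 1.97 to 2.37 CPM (median 2.20) in ctrl-OE and 0.235 to 0.844 CPM (median 0.659) in ctrl-KO, a 3.61-fold difference with no overlap (log2 fold change 1.85 ± 0.19 (SE), adjusted p = 1.22e-10). UBE2L6, the conjugating enzyme, went the other way, with 63.6 to 81.2 CPM (median 71.05) in ctrl-OE and 107 to 113 CPM (median 109.7) in ctrl-KO, again with no overlap (log2 fold change -0.61 ± 0.0441 (SE), adjusted p = 1.23e-14). ISG15 itself lay at 3.71 to 11.7 CPM (median 5.59) in ctrl-OE and 1.52 to 4.003 CPM (median 3.02) in ctrl-KO, with a log2 fold change of 1.10 ± 0.29 (SE), adjusted p = 0.00141. Its highest ctrl-OE value came from replicate 6 and its lowest ctrl-KO value from replicate 2, both among the libraries that stand apart by GC content, and ISG15 has a transcript GC content of 63.4%. Its log2 fold change without the 4 libraries was 0.72 (adjusted p = 0.00395). HERC5, the main human ligase, lay at 12.3 to 15.8 CPM (median 14.4) in ctrl-OE and 11.4 to 14.3 CPM (median 12.4) in ctrl-KO, and USP18, the protease that removes ISG15 and damps receptor signalling, at 1.95 to 3.09 CPM (median 2.31) and 1.47 to 1.92 CPM (median 1.66). They were higher in ctrl-OE by 0.17 and 0.50 on the log2 scale (adjusted p = 0.0413 and 0.00793 by edgeR).

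Of the 6 membrane and lipid effectors tested, 3 were lower in ctrl-OE (the IFITM genes), 1 was higher (BST2) and 2 did not pass. IFITM1 lay at 30.9 to 45.9 CPM (median 38.4) in ctrl-OE and 70.4 to 102 CPM (median 95.9) in ctrl-KO, IFITM2 at 81 to 112 CPM (median 93.4) and 122 to 147 CPM (median 141), and IFITM3 at 147 to 225 CPM (median 174) and 234 to 304 CPM (median 278). None of the 3 genes overlapped between the groups. The log2 fold changes were -1.23 ± 0.0942, -0.53 ± 0.0821 and -0.62 ± 0.0921 (SE), with adjusted p = 4.94e-14, 7.41e-07 and 3.38e-07 by edgeR. The trio stands close together on chromosome 11 (GRCh37, IFITM2 at chr11:303655-309397, IFITM1 at chr11:310041-315272, IFITM3 at chr11:319676-329475) and shares near-identical sequence, so the 3 values are not independent. BST2, or tetherin, which holds budding virus particles at the cell surface, lay at 3.82 to 6.99 CPM (median 4.85) in ctrl-OE and 2.54 to 3.24 CPM (median 3.12) in ctrl-KO, higher in all 6 ctrl-OE libraries (log2 fold change 0.78 ± 0.13 (SE), adjusted p = 4.14e-06). RSAD2 (viperin), a radical enzyme at lipid droplets, and its neighbour CMPK2, a nucleotide kinase, did not pass the test, with intervals of -0.92 to 0.41 and -0.15 to 0.39.

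Of the 7 sensors and RNA enzymes, 4 passed. DDX60, a helicase that promotes RNA sensing, lay at 9.86 to 11.3 CPM (median 10.6) in ctrl-OE and 16.5 to 20.2 CPM (median 17.6) in ctrl-KO, with no overlap and a log2 fold change of -0.74 ± 0.0844 (SE), adjusted p = 1.25e-09. The RNA sensor RIG-I, listed under its older symbol DDX58, averaged 15.7 CPM in ctrl-OE and 12.8 CPM in ctrl-KO, and the kinase EIF2AK2 (PKR), which halts translation on double-stranded RNA, 48.7 and 43.3 CPM. Both and ADAR were higher in ctrl-OE, by 0.29, 0.17 and 0.11 on the log2 scale. The read-through model that overlaps DDX58 leaves its counts uncertain. IFI16 (DNA sensor), IFIH1 (RNA sensor MDA5) and ISG20 (exonuclease) averaged 20.1, 0.431 and 0.615 CPM in ctrl-OE and 19.1, 0.529 and 0.763 CPM in ctrl-KO. They did not pass the test, with intervals of -0.09 to 0.25, -0.81 to 0.20 and -0.82 to 0.20, and neither did the 3 tested genes of the MX and OAS families. OASL averaged 0.0301 and 0.0174 CPM, and OAS3 0.553 and 0.320 CPM in ctrl-OE and ctrl-KO.

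The other members included the largest log2 fold changes. IFI35, a cytokine-induced leucine zipper protein, lay at 0.985 to 1.21 CPM (median 1.12) in ctrl-OE and 0.0524 to 0.530 CPM (median 0.228) in ctrl-KO, where single libraries held 1 to 9 counts. SAMD9, a growth suppressor and restriction factor of poxviruses, lay at 8.49 to 10.9 CPM (median 9.75) and 2.47 to 3.71 CPM (median 3.16). For both genes the groups were apart. The log2 fold changes were 2.14 ± 0.27 for IFI35 and 1.62 ± 0.12 for SAMD9 (SE), with adjusted p = 1.72e-08 and 2.26e-14 by edgeR. SAMD9L, the paralog of SAMD9 next to it on chromosome 7, lay at 0.139 to 0.537 CPM (median 0.304) in ctrl-OE and 0 to 0.281 CPM (median 0.161) in ctrl-KO. These are 3 to 12 counts against 0 to 5, and SAMD9L passed the test narrowly (adjusted p = 0.0463).

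LGALS3BP, a secreted glycoprotein that binds galectins, lay at 28.3 to 45.2 CPM (median 34.3) in ctrl-OE and 17.7 to 22.3 CPM (median 18.7) in ctrl-KO (log2 fold change 0.87 ± 0.12 (SE), adjusted p = 4.95e-08). The mitochondrial protein IFI6 was at 20.8 to 25.5 CPM (median 23.4) and 15.5 to 17.99 CPM (median 17.7) (log2 fold change 0.43 ± 0.0695 (SE), adjusted p = 2.21e-06), and SP100, a scaffold of nuclear bodies, at 3.86 to 4.81 CPM (median 4.48) and 1.97 to 3.002 CPM (median 2.68) (log2 fold change 0.79 ± 0.11 (SE), adjusted p = 1.66e-07). All 3 were higher in every ctrl-OE library. The nuclear body organiser PML lay at 31.1 to 44.8 CPM (median 33.9) in ctrl-OE and 26.4 to 33.1 CPM (median 29.9) in ctrl-KO, higher by 0.27 on the log2 scale (adjusted p = 0.0176 by edgeR). Leaving out the 4 libraries gave 0.17 (adjusted p = 0.0626), and the call was lost. IFI27 and IFI44L were lower in ctrl-OE, at 0.323 to 0.465 CPM (median 0.397) against 0.471 to 0.960 CPM (median 0.828) and at 0.0468 to 0.224 CPM (median 0.133) against 0.262 to 0.844 CPM (median 0.502). XAF1, which promotes apoptosis, averaged 0.213 and 0.219 CPM and IFI44 0.0730 and 0.0799 CPM, and neither passed the test. Among the ADP-ribosylation genes PARP9 was higher and PARP14 lower, with log2 fold changes of 0.33 and -0.23. PARP9 averaged 20.8 and 16.6 CPM and PARP14 21.6 and 25.2 CPM in ctrl-OE and ctrl-KO, while DTX3L, a ubiquitin ligase that pairs with PARP9, had an interval of -0.13 to 0.11.

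**Figure D2:**
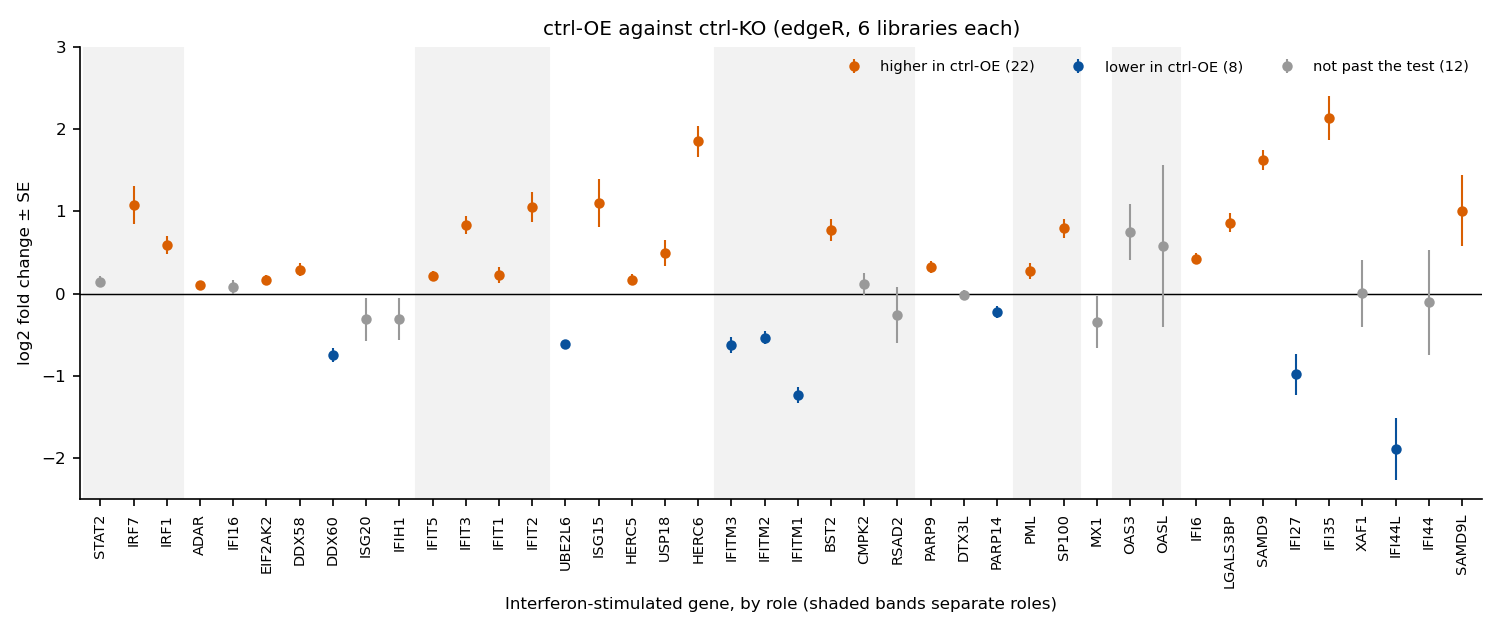
log2 fold change with SE of the 42 tested genes in ctrl-OE against ctrl-KO, with 6 libraries per group, from the edgeR fit. Genes are ordered by role. The 22 genes higher in ctrl-OE include all 4 IFIT genes, and the 8 lower ones include all 3 IFITM genes, UBE2L6 and DDX60.

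The promoter motif was found in genes of both directions. Of all genes tested between the controls 27.5% were higher and 23.9% lower in ctrl-OE, with a median log2 fold change of 0.0486. Among 24 tested genes with the core motif in a window, 11 were higher and 6 lower in ctrl-OE, with a median log2 fold change of 0.0782. Among 12 tested genes whose window lacked it, 7 were higher and 1 lower, with a median of 0.22. IFIT3 and DDX60, whose windows are printed above, both held 2 matches and differed in direction.

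MEIS1 overexpression was compared with ctrl-OE to ask which genes respond to more MEIS1. Of the 42 genes 6 passed the test in MEIS1-OE against ctrl-OE, 4 higher (ADAR, DTX3L, UBE2L6 and IFIT2) and 2 lower (BST2 and PARP14), which is 14.3% of the genes against 9.1% of all genes tested (5.52% higher and 3.58% lower). The median log2 fold change was 0.11 over the 42 genes and -0.0013 over all genes. Without the 4 libraries that stand apart by GC content, 12 genes passed, against 20.3% of all genes tested. The summed leukocyte markers were at 10.1 to 14.99 CPM in MEIS1-OE beside 8.05 to 11.7 in ctrl-OE, with CD68 and TYROBP past the test. Of the other marker lists, 2 of 8 neural stem cell markers (SOX1 and PROM1) were lower and 1 of 5 mesenchymal markers (PDGFRB) was higher, and their part in these results was not tested. The 12 genes held all 6 and added IRF7, ISG15, LGALS3BP, PML, IFITM2 and IFITM3, all higher in MEIS1-OE.

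ADAR, at chr1:154554171-154600489 on the minus strand (GRCh37), had the smallest adjusted p of the 6. It lay at 478 to 523 CPM (median 502) in ctrl-OE and 784 to 878 CPM (median 807) in MEIS1-OE, a 1.63-fold rise with no overlap between the groups (log2 fold change 0.71 ± 0.0365 (SE), adjusted p = 4.11e-18). MEIS2-OE, at 479 to 539 CPM (median 509), overlapped the control, with 1 library above its range. MEIS1-KO and MEIS2-KO lay at 434 to 493 CPM (median 467) and 448 to 484 CPM (median 451), beside 444 to 493 CPM (median 468) in ctrl-KO, and both overlapped it.

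DTX3L rose, with 16.4 to 18.3 CPM (median 17.1) in ctrl-OE and 19.6 to 23.2 CPM (median 20.3) in MEIS1-OE and no overlap (log2 fold change 0.29 ± 0.0606 (SE), adjusted p = 0.00103). UBE2L6 lay at 63.6 to 81.2 CPM (median 71.05) in ctrl-OE and 78.3 to 85.4 CPM (median 83.9) in MEIS1-OE, where 5 of 6 libraries exceeded the control range (log2 fold change 0.20 ± 0.0441 (SE), adjusted p = 0.00143). IFIT2 lay at 1.70 to 2.48 CPM (median 2.12) in ctrl-OE and 2.28 to 3.52 CPM (median 3.17) in MEIS1-OE, also with 5 of 6 libraries above the control range (log2 fold change 0.52 ± 0.15 (SE), adjusted p = 0.0178). The rises of these 3 genes were smaller than that of ADAR.

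BST2 and PARP14 fell. BST2 lay at 3.82 to 6.99 CPM (median 4.85) in ctrl-OE and 2.58 to 4.37 CPM (median 3.46) in MEIS1-OE (log2 fold change -0.55 ± 0.13 (SE), adjusted p = 0.00280). PARP14, which attaches single ADP-ribose units to proteins, lay at 19.7 to 23.1 CPM (median 21.5) in ctrl-OE and 16.4 to 22.3 CPM (median 17.6) in MEIS1-OE (log2 fold change -0.24 ± 0.0735 (SE), adjusted p = 0.0325). In both cases 5 of 6 MEIS1-OE libraries lay below the whole control range. The fold requirement aside, the calls of ADAR, DTX3L and BST2 held under every alternative. That of PARP14 was lost without replicate 1, 2, 4, 5 or 6 and with only the groups compared, that of IFIT2 without replicate 4, 5 or 6, and that of UBE2L6 with GC-bin offsets.

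IRF7 and ISG15 did not pass with all libraries and passed without the 4 that stand apart by GC content. IRF7 lay at 5.59 to 17.9 CPM (median 12.9) in MEIS1-OE against 5.86 to 13.5 CPM (median 8.02) in ctrl-OE, and ISG15 at 4.03 to 10.7 CPM (median 8.96) against 3.71 to 11.7 CPM (median 5.59). For both genes the lowest MEIS1-OE library was replicate 3 and the highest ctrl-OE library was replicate 6, the 2 OE libraries that stand apart by GC content, and their transcripts are GC-rich (66.9% and 63.4%). With all libraries the log2 fold changes were 0.54 ± 0.20 and 0.42 ± 0.25 (SE), with adjusted p = 0.0997 and 0.386 by edgeR. Without the 4 libraries they were 0.85 (adjusted p = 4.61e-05) and 0.81 (adjusted p = 0.00106). For LGALS3BP, with a transcript GC content of 61.2%, the value moved from 0.28 (adjusted p = 0.119) to 0.43 (adjusted p = 3.80e-04), again by edgeR.

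**Figure D3:**
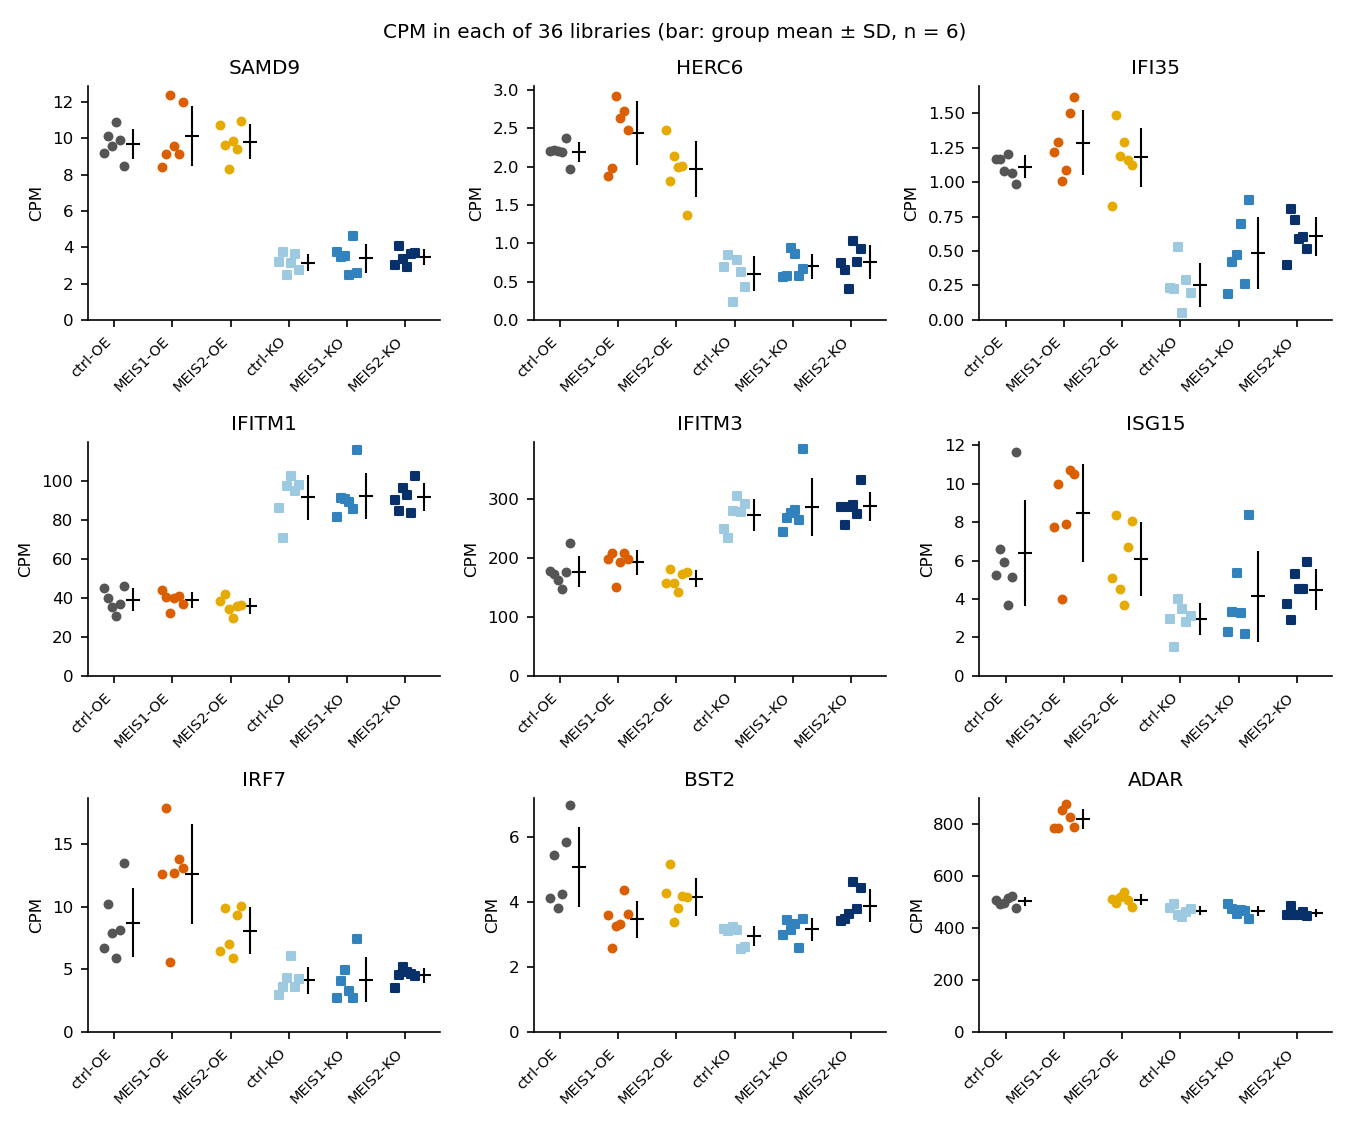
CPM of 9 interferon-stimulated genes in each of the 36 libraries, on linear axes from 0, with the group mean and SD (n = 6) as a bar beside the points. Circles are OE groups and squares KO groups. SAMD9, HERC6 and IFI35 sit higher in the OE groups, IFITM1 and IFITM3 sit higher in the KO groups, and ADAR is raised in MEIS1-OE.

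MEIS2 overexpression left no member past the test in MEIS2-OE against ctrl-OE, where 1.35% of all genes passed. By edgeR 4 of 42 genes had an unadjusted p under 0.05 (IFIH1, BST2, DDX60 and PARP14), and DESeq2 also called 0. The share of all genes at an unadjusted p under 0.05 was not counted, so no such count here or below is read as a result. The median log2 fold change was -0.0378, against -0.00934 over all genes. PARP14 lay at 16.7 to 20.2 CPM (median 18.8) and BST2 at 3.38 to 5.16 CPM (median 4.18), with intervals for the log2 fold change against ctrl-OE of -0.36 to -0.07 and -0.53 to -0.04. For ADAR the interval was -0.05 to 0.09 beside a value of 0.71 in MEIS1-OE.

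Directly compared, MEIS1-OE exceeded MEIS2-OE at 6 genes and fell below it at 0, against 7.75% of all genes passing (4.93% higher and 2.82% lower). The 6 genes were ADAR, DTX3L, UBE2L6, IFI6, LGALS3BP and IRF7. For ADAR the log2 fold change was 0.69 ± 0.0365 (SE), adjusted p = 7.57e-18, for DTX3L 0.32 ± 0.0609 (SE), adjusted p = 2.65e-04, and for UBE2L6 0.23 ± 0.0442 (SE), adjusted p = 2.90e-04, and these 3 genes did not overlap between the groups. IFI6 lay at 19.3 to 23.8 CPM (median 22.3) in MEIS2-OE and 23.4 to 27.1 CPM (median 26.2) in MEIS1-OE (log2 fold change 0.22 ± 0.0682 (SE), adjusted p = 0.0330), LGALS3BP differed by 0.37 and IRF7 by 0.64. By DESeq2 5 genes passed. The calls of IFI6, LGALS3BP and IRF7 were each lost without replicate 1, 2, 4 or 5, that of UBE2L6 with GC-bin offsets, and those of ADAR and DTX3L under no alternative, the fold requirement aside. Without the 4 libraries 11 genes passed by edgeR, all 6 among them, while 17% of all genes did, and the added genes were ISG15, PML, IFITM2, IFITM3 and, lower in MEIS1-OE, STAT2.

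MEIS1 knockout changed no member past the test in MEIS1-KO against ctrl-KO, where 1.46% of all genes passed. By edgeR 4 genes had an unadjusted p under 0.05 (IFIT3, IFI35, HERC5 and DDX60), and DESeq2 also called 0. Again the share of all genes at that unadjusted p was not counted. IFI35 lay at 0.186 to 0.872 CPM (median 0.445) in MEIS1-KO against 0.0524 to 0.530 CPM (median 0.228) in ctrl-KO, with an interval of 0.32 to 1.61. The IFITM genes lay at 81.4 to 115 CPM (median 89.9) for IFITM1, 125 to 176 CPM (median 136) for IFITM2 and 244 to 384 CPM (median 271) for IFITM3, and replicate 6 was the highest library for all 3.

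In MEIS2-KO against ctrl-KO 4 of 42 genes passed the test, 2 higher (IFIT3 and IFI35) and 2 lower (DDX60 and RSAD2). This was a share of 9.52% beside 10% of all genes (4.04% higher and 5.98% lower). Because ctrl-KO had a non-targeting guide, loss of a MEIS gene and Cas9 cutting as such cannot be told apart in either knockout. IFI35 lay at 0.0524 to 0.530 CPM (median 0.228) in ctrl-KO and 0.402 to 0.805 CPM (median 0.595) in MEIS2-KO, with 4 of 6 libraries above the control range (log2 fold change 1.28 ± 0.31 (SE), adjusted p = 0.00587). IFIT3 lay at 2.46 to 3.54 CPM (median 3.14) in ctrl-KO and 3.49 to 5.40 CPM (median 3.82) in MEIS2-KO, with 5 of 6 libraries above it (log2 fold change 0.40 ± 0.11 (SE), adjusted p = 0.0206). For IFI35 all MEIS2-KO libraries remained below those of ctrl-OE, while for IFIT3 the highest library reached the ctrl-OE range.

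DDX60 lay at 16.5 to 20.2 CPM (median 17.6) in ctrl-KO and 12.3 to 15.9 CPM (median 15.4) in MEIS2-KO (log2 fold change -0.28 ± 0.0833 (SE), adjusted p = 0.0251). RSAD2 lay at 0.174 to 0.338 CPM (median 0.298) in ctrl-KO and 0.0504 to 0.154 CPM (median 0.134) in MEIS2-KO, which is 3 to 7 counts against 1 to 3 (log2 fold change -1.22 ± 0.40 (SE), adjusted p = 0.0469). For both genes all 6 MEIS2-KO libraries lay below all ctrl-KO libraries, but the RSAD2 call was lost whichever replicate number was left out and also without the 4 libraries that stand apart by GC content. The DDX60 call was lost without replicate 1, 2, 4 or 5 and that of IFIT3 without replicate 4, 5 or 6, so that IFI35 alone held throughout, the fold requirement aside. In the fit without the 4 libraries 6 genes passed against 11.2% of all genes, namely IFI35, IFIT3, DDX60 and, newly, BST2, PML and IFI16. MEIS1-KO against MEIS2-KO gave 0 of 42 genes, with 5 at an unadjusted p under 0.05 by edgeR and 0 by DESeq2, and 0.0152% of all genes passed. The largest of these was RSAD2, with a log2 fold change of 1.36 ± 0.40 (SE), adjusted p = 0.855. Here too the share of all genes at the unadjusted p was not counted.

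**Figure D4:**
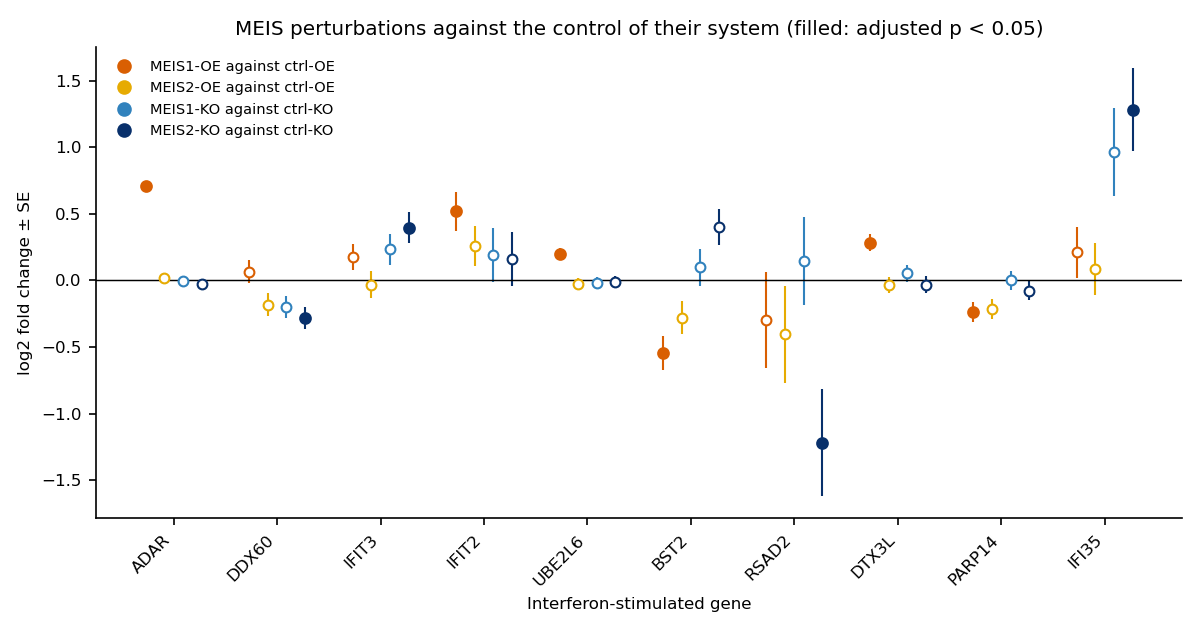
log2 fold change with SE of the 10 genes that passed the test in at least 1 MEIS perturbation against the control of its own system, with 6 libraries per group. Filled points passed (edgeR, adjusted p under 0.05). ADAR has the smallest adjusted p, and it passed in MEIS1-OE and in none of the other 3 perturbations.

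The MEIS1 contrast, the difference between the effect of overexpression and that of knockout, passed at 3 genes against 3.48% of all genes (2.35% higher and 1.14% lower). ADAR and UBE2L6 were higher, with log2 values of 0.71 ± 0.0515 (SE), adjusted p = 3.51e-13 and 0.22 ± 0.0621 (SE), adjusted p = 0.0388, and BST2 was lower (-0.64 ± 0.19 (SE), adjusted p = 0.0488). When the 4 libraries were left out 8 genes passed, ADAR and UBE2L6 still among them and BST2 not, against 12.6% of all genes. Of the 3 calls that of ADAR held under every alternative, while UBE2L6 lost its call without replicate 2, 3, 4 or 5 and under 3 other settings, and BST2 without replicate 1, 2, 4, 5 or 6 and under 3 other settings. In the MEIS2 contrast BST2 was the only gene past the test (-0.68 ± 0.19 (SE), adjusted p = 0.0348), where 2.57% of all genes passed, and without the 4 libraries that call was lost and IFI16 passed instead (3.69% of all genes). It was also lost without replicate 4, 5 or 6. BST2 averaged 5.08, 3.46 and 4.17 CPM in ctrl-OE, MEIS1-OE and MEIS2-OE, and 2.97, 3.16 and 3.89 CPM in ctrl-KO, MEIS1-KO and MEIS2-KO. Comparisons that share a control group are not independent of each other.

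The pathway around these genes was examined through lists of genes that are not members. The listed genes were tested in the main fit with all libraries only, and under no alternative. Of 12 interferon genes (IFNB1, IFNG, IFNE and members of the alpha, kappa, omega and lambda families) 11 never exceeded 1 count in a library, and 5 had 0 counts throughout. IFNE, an interferon of epithelia, reached at most 5 counts. By contrast, the 11 receptor and JAK-STAT genes were all detected, with a sum of 514 to 541 CPM per library in ctrl-OE and 448 to 480 CPM in ctrl-KO.

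In ctrl-OE against ctrl-KO, where 27.5% of all genes were higher and 23.9% lower, 8 of these 11 genes were higher and 1 (STAT3) lower. The receptor chain IFNAR1 averaged 51.6 against 38.5 CPM, and the kinase JAK1 122 against 95.3. Of 14 tested sensors, adaptors and kinases 8 were higher and 2 lower, and 71.4% passed beside 51.4% of all genes. TMEM173 (STING), the adaptor of the cytosolic DNA pathway, was at 3.76 to 4.53 CPM (median 4.25) against 1.06 to 1.79 CPM (median 1.47), while the DNA sensor AIM2 was lower, at 1.03 to 1.49 CPM (median 1.19) against 2.24 to 4.05 CPM (median 2.92). IRF5, a transcription factor of the same family as IRF7, had 0 counts in all ctrl-KO libraries and 3 to 8 counts in ctrl-OE. Of 9 brakes of the pathway 6 were higher and 2 lower (88.9%), and SOCS1, an inhibitor of JAK kinases, averaged 4.76 against 2.36 CPM. Of 29 tested further interferon-induced genes 14 were higher and 6 lower (69.0%), with HELZ2, a helicase, at 33.01 against 12.2 CPM on average and TRIM22, a ubiquitin ligase, lower at 23.6 against 42.9.

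In MEIS1-OE against ctrl-OE, 6 of the 29 further interferon-induced genes rose and 1 fell, 24.1% beside 9.1% of all genes (5.52% higher and 3.58% lower). SLC15A3, a lysosomal transporter of bacterial peptides, rose most, with 4.52 to 7.64 CPM (median 5.33) in ctrl-OE and 19.5 to 32.7 CPM (median 26.4) in MEIS1-OE (log2 fold change 2.24 ± 0.12 (SE), adjusted p = 3.87e-17). APOL6, APOL1, PARP10, BATF2 and TRIM21 rose by 1.23, 1.02, 0.74, 0.65 and 0.19 on the log2 scale, and TDRD7 fell (log2 fold change -0.96). In the MEIS1 contrast 1 of these 29 genes passed (higher), a share of 3.45% beside 3.48% of all genes. No receptor or JAK-STAT gene passed in MEIS1-OE, MEIS2-OE or MEIS1-KO by edgeR, where 2, 1 and 1 of the 11 had an unadjusted p under 0.05. For all genes the share at that unadjusted p was not counted. In MEIS2-KO 2 of the 11 passed, 1 higher and 1 lower, beside 10% of all genes. TLR4, the sensor of bacterial lipopolysaccharide, rose in both overexpressions, with 41.5 to 52.1 CPM (median 44.4) in ctrl-OE, 81.04 to 96.5 CPM (median 84.2) in MEIS1-OE and 75.8 to 92.98 CPM (median 78.2) in MEIS2-OE. These had log2 fold changes of 0.94 and 0.84 against the same control libraries.

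In the knockouts TMEM173 was higher and AIM2 lower than in ctrl-KO. TMEM173 lay at 1.86 to 2.95 CPM (median 2.22) in MEIS1-KO and 2.14 to 4.001 CPM (median 2.79) in MEIS2-KO (adjusted p = 0.0161 and 3.33e-05 by edgeR). AIM2 lay at 1.77 to 2.31 CPM (median 2.10) and 1.57 to 2.77 CPM (median 1.89) (adjusted p = 0.0402 and 0.00763 by edgeR). In MEIS2-KO the same test also put IKBKE, a kinase that activates IRF3 and IRF7, higher (log2 fold change 0.33). The summed leukocyte markers were at 3.98 to 5.33 CPM in MEIS2-KO beside 3.04 to 3.41 in ctrl-KO, where CD68 and TYROBP were higher. Neural stem cell markers summed to 5004 to 6090 CPM beside 4457 to 4958 (4 of 8 past the test, 1 higher and 3 lower), and endothelial markers to 179.9 to 228 CPM beside 147 to 160.1 (2 of 4, both higher). The part of these markers in the differences was not tested. Both knockout groups share the 6 ctrl-KO libraries.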

How the data were processed

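RNA was measured in 36 bulk libraries of hNSC, 6 per group, prepared with a stranded poly(A) kit and sequenced paired-end. The deposited values are raw counts of reads per gene symbol, which the authors made with HTSeq after alignment to hg19; per the submitters' processing notes STAR 2.7.0a and Trimmomatic 0.39 were used, and the annotation and the strand setting of the counting are not given in the sources used here. The 47 genes, the other gene lists and the tests were chosen with earlier results of these data known. The test took the 19689 of 28516 genes whose counts over the 36 libraries reached 10 together, by edgeR 4.0.16 (glmQLFit and glmQLFTest, TMM factors, R 4.3.3) in 1 fit over all 6 groups, with no covariate, and p-values were adjusted by Benjamini-Hochberg over all genes tested. A gene was called at an adjusted p under 0.05. The MEIS1 and MEIS2 contrasts subtract the knockout effect from the overexpression effect. On simulated data without GC differences between libraries, edgeR recovered 193 of 200 genes changed 2-fold in MEIS1-OE against ctrl-OE. There were 4 false calls among 19689 genes. The changed genes were drawn from those above 1 CPM on average, so this recovery does not cover the 17 of the 47 genes under 1 CPM. Described genes were those with the smallest adjusted p between the controls, those called in another comparison and those of the highest or lowest level, and further genes were named to account for each role. Alternatives were RLE size factors, DESeq2 1.42.0, other filters, a replicate block, only the groups compared, a fold threshold and each replicate number left out. GC-bin offsets and the removal of 4 libraries by GC content were added after seeing the data. Promoters came from RefSeq (GRCh38.p14) and gene positions from GENCODE v44lift37 (GRCh37). Counting error limits genes with few counts, and intervals cover the spread between libraries. Replicate libraries of a group differed by more than counting noise (chi-square per degree of freedom 2.74 to 38.6). 1 gene of the pathway lists is not reported here by name.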

Additional observations from a re-analysis of the deposited data

Results flagged for a closer look

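In 107 sets of 6 libraries (described genes by group, with at least 10 counts), the gap between the highest or lowest library and the next was compared with the range of the group, and 5 sets exceeded the 95% critical value of Dixon's test for 6 libraries. Chance alone marks about 1 set in 20. MEIS1-KO replicate 6 was the highest library for all 3 IFITM genes: IFITM1 stood at 115.5 CPM against 81.4 to 90.9 in the other 5 libraries, IFITM2 at 176 CPM against 125 to 139, and IFITM3 at 384 CPM against 244 to 280. MEIS1-OE replicate 3 was the lowest library of its group for IFITM3, at 150.1 CPM against 192 to 208, and the highest for DDX60, at 14.5 CPM against 9.59 to 11.1. Both libraries stand apart by GC content (0.89 and -0.84 on the log2 scale, genes of high minus genes of low GC content, relative to their group), and the part of this in the levels was not tested.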

How the results depend on the processing

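The fold threshold aside, 30 of 50 calls of single genes held under every alternative and 20 were lost under at least 1, with no change of direction. With all libraries the number of genes called was 30 for ctrl-OE against ctrl-KO, 6 for MEIS1-OE and 4 for MEIS2-KO against their controls, 6 for MEIS1-OE against MEIS2-OE, 3 for the MEIS1 contrast and 1 for the MEIS2 contrast. An absolute log2 fold change above 0.58 left 18, 1, 2 and 2 genes in the first 4. DESeq2 called 7 in MEIS2-KO, where it called 28 between the controls. Fitting only the groups compared gave 9 in MEIS2-KO, 1 in the MEIS1 contrast and 2 in the MEIS2 contrast. GC-bin offsets gave 1 in MEIS2-OE, 5 in the MEIS1 contrast and 4 in the MEIS2 contrast. Without the 4 libraries that stand apart by GC content, 12 genes passed in MEIS1-OE, 11 in MEIS1-OE against MEIS2-OE and 8 in the MEIS1 contrast, and the cause was not tested. Leaving out each replicate number in turn gave 25 to 28 genes between the controls, 4 to 7 in MEIS1-OE, 1 to 5 in MEIS2-KO (1 without replicate 4 or 5, 2 without replicate 1), 3 to 8 in MEIS1-OE against MEIS2-OE (3 without replicate 1, 2, 4 or 5), 1 to 2 in the MEIS1 contrast (1 without replicate 2, 4 or 5) and 0 to 1 in the MEIS2 contrast (0 without replicate 4, 5 or 6). In MEIS2-OE, MEIS1-KO and MEIS1-KO against MEIS2-KO it gave 0 each time. Shares of all genes are given above only for the fit without the 4 libraries and for the fold threshold between the controls. For the other settings, DESeq2 among them, the share of all genes called is not given. Their counts, here and above, are therefore not read as a result about the interferon-stimulated genes.

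Correlation by replicate number was weak and uneven. Deviations from the group means correlated at 0.0361 on average within a number and -0.00732 between numbers. Of 90 same-numbered pairs 16 exceeded 0.1, and the highest means were 0.127 for number 6 and 0.0501 for number 1. In every group the library numbered 6 deviated towards genes of high GC content (0.08 to 0.89 on the log2 scale), so shared structure by number is not excluded. With the replicate block 31 genes passed between the controls, 7 in MEIS1-OE, 6 in MEIS2-KO, 7 in MEIS1-OE against MEIS2-OE, 3 in the MEIS1 contrast and 1 in the MEIS2 contrast, and 0 in MEIS2-OE, MEIS1-KO and MEIS1-KO against MEIS2-KO. The share of all genes called with the block is not given either.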
